A study of Mus musculus with 2 samples.

Results

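Creatine kinase and the genes that supply creatine were described in RNA sequencing libraries from the apex of mouse hearts at E12.5. The set holds 8 genes of the 29383 symbols in the deposited table, chosen by name and with earlier results of these data known. They are the 4 creatine kinase genes Ckm, Ckb, Ckmt1 and Ckmt2, the creatine transporter gene Slc6a8, the synthesis genes Gatm and Gamt, and the adenylate kinase gene Ak1. All 8 were found, each as 1 gene model. The mutant carried Nkx2-5cre and Ezh2f/f, with both copies of Ezh2 floxed, and the heterozygote carried Nkx2-5cre and Ezh2f/+, with 1 floxed copy. Both groups therefore carry the Cre recombinase, which is driven from Nkx2-5, a cardiac lineage gene, and the heterozygote is not a wild type. Ezh2 encodes the enzyme of Polycomb repressive complex 2, which methylates histone H3 and keeps genes silent. The apices of 8 hearts went into 1 library per genotype, so no spread between animals was measured, no difference has a replicate check and no p-value is given. Intervals in the text are at 95% and take in the error of counting alone; the reads carry no molecular identifiers, so they need not be separate molecules.

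Creatine kinase moves a phosphate group between ATP and creatine, and muscle uses phosphocreatine both as a reserve and as a shuttle that carries energy from mitochondria to the contractile apparatus. In the heart the muscle isoform docks at the M-band, the mitochondrial isoforms sit between the mitochondrial membranes, and the brain isoform is the form of early embryonic heart and of many other tissues. Creatine is made by Gatm and then Gamt, mostly outside the heart, and muscle cells import it through the transporter encoded by Slc6a8. Adenylate kinase, encoded in muscle chiefly by Ak1, is a parallel route of phosphate transfer between adenine nucleotides.

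The 250 bases before the transcription start of the creatine kinase genes are shown because these genes differ from each other in level and in their difference between genotypes. They come from RefSeq on build GRCm38.p6, where 7 of the 8 members were matched, all except Slc6a8. Capitals mark matches, on either strand, to TATANA (the core of a TATA box), CCAAT and CANNTG (an E-box, the site form of basic helix-loop-helix factors). Ckm is at chr7:19410844-19411093 on the plus strand and Ckb at chr12:111672339-111672588 on the minus strand. The upstream of 2 listed starts of Ckmt1 is at chr2:121357526-121357775 on the plus strand, and Ckmt2 is at chr13:91876886-91877135 on the minus strand.
Ckm: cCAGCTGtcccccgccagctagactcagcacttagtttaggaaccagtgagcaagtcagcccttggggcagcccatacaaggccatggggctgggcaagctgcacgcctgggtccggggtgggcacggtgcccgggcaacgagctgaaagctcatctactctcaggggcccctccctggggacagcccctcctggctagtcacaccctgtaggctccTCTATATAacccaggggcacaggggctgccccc
Ckb: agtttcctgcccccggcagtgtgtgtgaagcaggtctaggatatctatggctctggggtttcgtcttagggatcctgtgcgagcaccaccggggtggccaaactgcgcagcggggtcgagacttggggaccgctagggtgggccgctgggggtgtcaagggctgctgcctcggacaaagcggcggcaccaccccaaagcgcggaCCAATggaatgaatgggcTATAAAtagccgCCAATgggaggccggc
Ckmt1: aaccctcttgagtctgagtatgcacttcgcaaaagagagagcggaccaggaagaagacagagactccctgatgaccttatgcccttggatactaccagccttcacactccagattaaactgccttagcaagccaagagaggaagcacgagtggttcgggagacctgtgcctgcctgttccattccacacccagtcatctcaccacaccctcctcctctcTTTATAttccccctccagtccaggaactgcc
Ckmt2: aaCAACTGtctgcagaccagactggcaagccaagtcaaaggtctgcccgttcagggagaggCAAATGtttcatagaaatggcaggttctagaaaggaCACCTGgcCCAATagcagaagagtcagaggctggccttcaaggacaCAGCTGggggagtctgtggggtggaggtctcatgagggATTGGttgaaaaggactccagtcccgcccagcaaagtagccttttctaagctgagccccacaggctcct
The window of Ckm held 2 overlapping TATANA matches, 33 and 31 bases before the start, 1 E-box at the far end and 6 CpG dinucleotides, which is the median of all 32851 promoters. That of Ckb held 1 TATANA match 28 bases before the start, 2 CCAAT boxes and 16 CpG. Its TATANA match lies inside a match to the MEF2 motif, named for a muscle factor family, and no other member window held one. The Ckmt1 window shown had 1 TATANA match 31 bases before the start and 4 CpG. The window of the other listed Ckmt1 start, not shown, had 0 TATANA matches, 1 CCAAT box and 9 CpG. Which start these hearts use was not tested. That of Ckmt2 had no TATANA match, with 4 E-boxes, 2 CCAAT boxes and 2 CpG. Of all promoters of the same length, 22.6% held TATANA, 33.8% CCAAT, 66.2% CANNTG and 2.92% the MEF2 motif. No member window matched the CArG box of serum response factor exactly, and 1.47% of all promoters did. The Ckm window holds ccatacaagg, which differs in 1 letter from that pattern, CCWWWWWWGG with W for A or T. Such near matches were not counted in the other windows or over all promoters, so the share of exact matches is no measure for it. These are matches of letters and say nothing of binding.

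Library totals were 14122579 reads in the mutant and 13944617 in the heterozygote. Ezh2 had 319 reads in the library labelled mutant and 493 in that labelled heterozygote, a ratio of 0.601 (0.521 to 0.694). The labels name cardiomyocytes and no sort. The 12 cardiomyocyte markers summed to 55791 CPM (scaled reads per 1000000 of the library) in the mutant and 56568 CPM in the heterozygote. Markers of other cells were present in both. In the mutant, endothelial markers summed to 1003 CPM, fibroblast and valve markers to 1279, epicardial markers to 237.5, smooth muscle and pericyte markers to 1501, leukocyte markers to 48.6 and erythroid markers to 4380. In the heterozygote the same lists summed to 1043, 1303, 232.4, 1617, 64.3 and 6264 CPM. Single markers differed more than the sums, in both directions. The highest ratio in these lists was that of the cardiomyocyte marker Myl7, 1.67 (1.64 to 1.70). After 1 CPM was added to each level, none was at least 2-fold higher and 2 were at least 2-fold lower. Of all genes that reach 1 CPM in either library, 0.605% were higher and 0.173% lower by that rule. The pericyte marker Rgs5 had 7 reads in the mutant and 48 in the heterozygote (ratio 0.136, 0.0517 to 0.301). The adult beta-globin gene Hbb-b1, which can share reads with a near-identical copy, had 13400 reads in the mutant and 25870 in the heterozygote (ratio 0.481, 0.471 to 0.491). The part of these cells in the values below was not tested.

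The muscle isoform Ckm was the member with the largest difference, lower in the mutant, while Ckb, Slc6a8 and Gatm were somewhat higher there. With the trend of log2 ratios with GC content and length removed, these 3 stood at 0.07, 0.09 and 0.41 in that order. Ckmt2 was lower, Ckmt1 was higher but close to the detection floor, and Gamt and Ak1 were not separated beyond counting error. By the size rule, a log2 ratio of CPM + 1 at or beyond 1 in genes that reach 1 CPM in either library, 1 of 8 members was at least 2-fold lower, against 0.173% of the 16185 genes tested. None of the members was at least 2-fold higher by that rule, against 0.605% of genes. Members and lists were chosen with earlier results of these data known, so these counts are not a test. The counting interval lay above 1 for 4 members and below 1 for 2, where 17.4% of all genes lay above and 19.1% below. Ckm, Ckb, Slc6a8 and Ak1 have at least 1000 reads in both libraries together, a depth at which 23.6% of genes lay above and 34% below. Log2 ratios were above 0 for 6 of 8 members, against 48.8% of genes. The median log2 ratio of the 8 was 0.17 and that of all genes tested -0.008. Ckmt1 reached 1 CPM through its mutant level alone and could only be counted as higher; the other 7 reached it in both libraries, and 3 of these had an interval above 1.

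**Figure D1:**
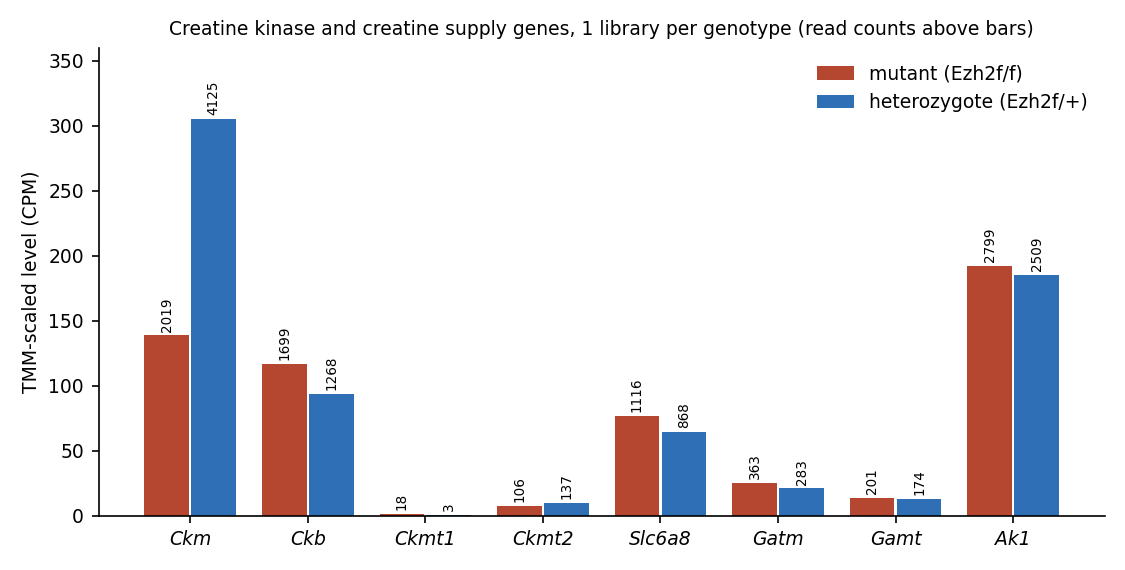
Scaled level (CPM, not per length) of each member in the mutant library (red, left bar) and the heterozygote library (blue, right bar), with the read count above each bar. Bars start at 0 and there is 1 library per genotype. Ckm stands at 138.7 CPM in the mutant and 304.9 CPM in the heterozygote, while the bars of each other member lie closer together. The linear axis hides ratios of low members such as Ckmt1, at 1.24 CPM in the mutant and 0.222 CPM in the heterozygote.

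Ckm (chromosome 7, 19996443 to 20006932, plus strand in the files' coordinates) encodes the cytosolic isoform of striated muscle. It had 2019 reads in the mutant and 4125 in the heterozygote, or 138.7 CPM in the mutant against 304.9 CPM in the heterozygote. The ratio of mutant to heterozygote was 0.455 (0.431 to 0.480), and the log2 ratio was -1.13. The authors' deposited table gives it a fold of 2.07, which is heterozygote over mutant and not rescaled. Only 14 of the 16185 genes tested had a lower log2 ratio. Most of those have few reads: among the 5163 genes with at least 1000 reads in both libraries together, 4 were at least 2-fold lower, which is 0.0775%, 0 were at least 2-fold higher, and 1 gene, the amino acid decarboxylase gene Ddc, stood below Ckm. That read limit was chosen after the values were seen. In bulk tissue, fewer cells that express a gene and less of its RNA per cell cannot be told apart. Relative to the median of the 12 cardiomyocyte markers, which was itself -0.10, the log2 ratio of Ckm was -1.03, and without the GC content and length trend of the libraries it was -1.19. A model on the opposite strand, AK020867, lies inside Ckm over 3952 bases and had 301 reads in the mutant and 564 in the heterozygote, a ratio of 0.496 (0.430 to 0.571). Whether the counting used strand is not stated, and without it the reads of the pair cannot be told apart.

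Ckb (chromosome 12, 112907572 to 112910479, minus strand) encodes the brain isoform. It had 1699 reads in the mutant and 1268 in the heterozygote, or 116.7 CPM in the mutant against 93.7 CPM in the heterozygote. Its ratio was 1.25 (1.16 to 1.34) and its log2 ratio 0.31, at percentile 86.96 of the log2 ratios of all genes tested. Its transcript is rich in GC (61.7%), and the trend of log2 ratios with GC content and length over all genes stands at 0.24 for such a transcript. With that trend removed the log2 ratio of Ckb was 0.07. Neural and neural crest markers, whose cells also use this isoform, summed to 15.4 CPM in the mutant and 11.4 CPM in the heterozygote over 7 genes. The neurofilament gene Nefm was the 1 of these at least 2-fold higher, with 74 reads in the mutant and 18 in the heterozygote (ratio 3.82, 2.26 to 6.80). Without it the sums were 10.3 CPM in the mutant and 10.1 CPM in the heterozygote. Of the 7, 0 were at 0 reads in the mutant and 1 in the heterozygote, Sox10, which had 3 reads in the mutant and 0 in the heterozygote. Their part in the level of Ckb was not tested.

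Ckm and Ckb have coding sequences of equal length, 1143 bases, so that their reads can be set side by side per coding base. Ckm held 54.3% of the reads of the pair in the mutant (Wilson interval 52.7 to 55.9; 2019 of 3718) and 76.5% in the heterozygote (75.3 to 77.6; 4125 of 5393). Library scaling cancels in these shares. The trend with GC content and length does not cancel, as it stood at 0.24 for Ckb and 0.06 for Ckm. With it removed the log2 ratios were 0.07 for Ckb and -1.19 for Ckm, and no share was computed that way. There were 1.19 reads of Ckm for each read of Ckb in the mutant, against 3.25 in the heterozygote. Per kilobase of the principal GENCODE transcript, which is 2742 bases for Ckm and 1472 for Ckb, the share was 38.9% in the mutant and 63.6% in the heterozygote, so which isoform is more abundant in the mutant depends on the length used. The share was lower in the mutant under both lengths. Each length is the same in both libraries, so no choice of length could reverse that direction.

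**Figure D2:**
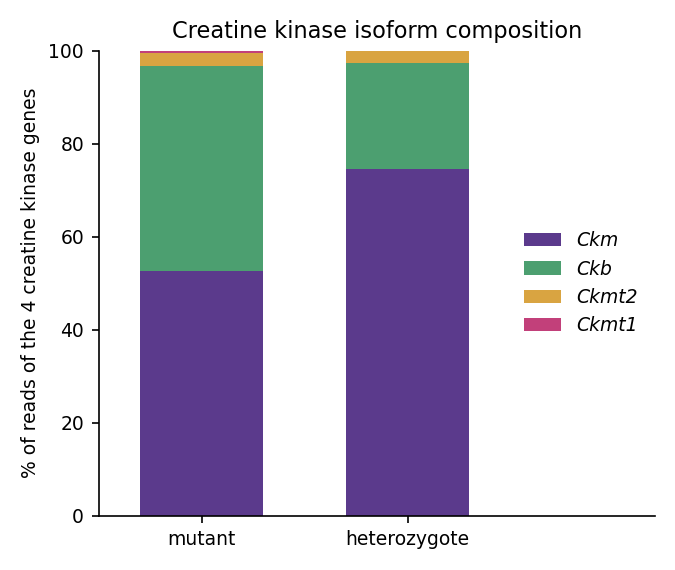
Share (%) of each isoform in the reads of the 4 creatine kinase genes, in the mutant (left) and the heterozygote (right), 1 library each. Ckm takes 52.6% in the mutant and 74.6% in the heterozygote, Ckb takes 44.2% in the mutant and 22.9% in the heterozygote, and both mitochondrial isoforms form a thin band at the top.

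Both mitochondrial isoforms were scarce at this stage. Ckmt2 (chromosome 13, 91992992 to 92016490, minus strand), the sarcomeric mitochondrial isoform, had 106 reads in the mutant and 137 in the heterozygote, or 7.28 CPM in the mutant against 10.1 CPM in the heterozygote. The ratio was 0.719 (0.553 to 0.933), the log2 ratio -0.43, and -0.33 with the GC and length trend removed. Ckmt1 (chromosome 2, 121183536 to 121189473, plus strand), the ubiquitous mitochondrial isoform, had 18 reads in the mutant and 3 in the heterozygote, or 1.24 CPM in the mutant against 0.222 CPM in the heterozygote. Its ratio of 5.58 had a wide counting interval, 1.63 to 29.5, and its log2 ratio of 0.87 was short of the 2-fold rule because of the pseudocount; with a pseudocount of 0.1 CPM it was 2.05. The hearing gene Strc overlaps the last 11 bases of Ckmt1 on the other strand and had 2 reads in the mutant and 0 in the heterozygote.

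Ckmt2 held 85.5% of the mitochondrial isoform reads in the mutant (78.2 to 90.6; 106 of 124) and 97.9% in the heterozygote (93.9 to 99.3; 137 of 140). The mitochondrial pair made up 3.23% of all creatine kinase reads in the mutant (2.71 to 3.83) and 2.53% in the heterozygote (2.15 to 2.98), intervals that overlap. Summed, the pair had a ratio of 0.823 (0.641 to 1.06), which was not separated from 1 at this depth. The 4 creatine kinase genes together stood at 263.9 CPM in the mutant and 409.0 CPM in the heterozygote, a ratio of 0.645 (0.619 to 0.672). The difference of -145.1 CPM is made up of -166.3 CPM for Ckm, 22.97 CPM for Ckb, -2.85 CPM for Ckmt2 and 1.01 CPM for Ckmt1.

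**Figure D3:**
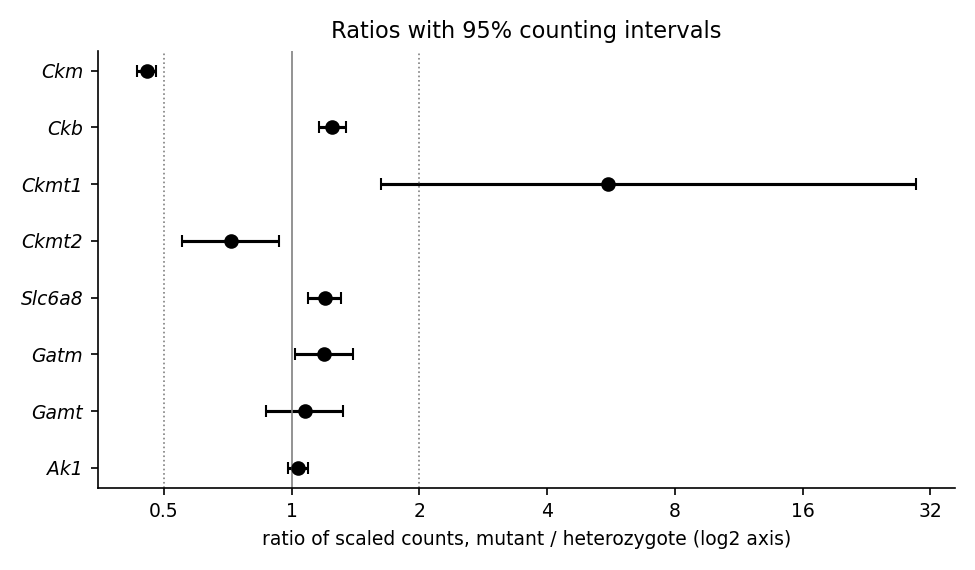
Ratio of scaled counts, mutant over heterozygote, on a log2 axis, with 95% counting intervals that do not include any spread between animals. The solid line marks equality and dotted lines 2-fold. Only Ckm has its whole interval beyond the lower 2-fold line, and the interval of Ckmt1 reaches from 1.63 to 29.5.

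The genes of creatine import and synthesis differed far less than Ckm. Slc6a8 (chromosome X, 70918489 to 70927839, plus strand), the sodium-coupled creatine transporter, had 1116 reads in the mutant and 868 in the heterozygote, or 76.7 CPM in the mutant against 64.2 CPM in the heterozygote. Its ratio was 1.19 (1.09 to 1.31) and its log2 ratio 0.25, which was 0.09 with the GC and length trend removed. A shorter model named CRT lies inside it on the same strand, with 165 reads in the mutant and 162 in the heterozygote, and can share its reads; with those subtracted the log2 ratio of Slc6a8 was 0.32. Gatm (chromosome 2, 122420208 to 122436994, minus strand) transfers the amidino group of arginine to glycine, the first step of creatine synthesis. It had 363 reads in the mutant and 283 in the heterozygote, or 24.9 CPM in the mutant against 20.9 CPM in the heterozygote, and a ratio of 1.19 (1.02 to 1.40). Its transcript is poor in GC (43.2%), and its log2 ratio of 0.24 was 0.41 with the trend removed. Gamt (chromosome 10, 79721023 to 79723646, minus strand), the methyltransferase of the second step, had 201 reads in the mutant and 174 in the heterozygote, or 13.8 CPM in the mutant against 12.9 CPM in the heterozygote. Its ratio of 1.07 had an interval of 0.872 to 1.32, which spans 1. The synthesis pair summed to 38.7 CPM in the mutant and 33.8 CPM in the heterozygote, a ratio of 1.15 (1.01 to 1.30).

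Ak1 (chromosome 2, 32477265 to 32490572, plus strand), which interconverts adenine nucleotides in the cytosol, had 2799 reads in the mutant and 2509 in the heterozygote, or 192.3 CPM in the mutant against 185.5 CPM in the heterozygote. Its ratio was 1.04 (0.982 to 1.09) and the interval spans 1. Its log2 ratio of 0.05 was 0.15 relative to the cardiomyocyte markers. There were 1.39 reads of Ak1 for each read of Ckm in the mutant and 0.608 in the heterozygote.

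Per kilobase of principal transcript, the level in the mutant ran in the order Ak1 (92.2 CPM per kilobase), Ckb (79.3), Ckm (50.6), Slc6a8 (23.1), Gamt (13.97), Gatm (10.4), Ckmt2 (4.90) and Ckmt1 (0.763). In the heterozygote the order was Ckm (111.2 CPM per kilobase), Ak1 (88.96), Ckb (63.7), Slc6a8 (19.4), Gamt (13.0), Gatm (8.76), Ckmt2 (6.82) and Ckmt1 (0.137). Ckm thus stands below Ak1 and Ckb in the mutant and above both in the heterozygote, and the other members keep their order among themselves. With 1 library each, no spread over samples exists by which neighbours in these orders could be told apart. Per kilobase of coding sequence Ckm stood at 121.3 in the mutant and 266.8 in the heterozygote, above Ckb, at 102.1 in the mutant and 82.0 in the heterozygote. Ak1 was above both on that scale, at 330.3 in the mutant and 318.7 in the heterozygote. Counts can include reads outside the coding sequence, which is 582 of 2085 bases in the principal transcript of Ak1. An order per coding base is therefore uncertain.

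**Figure D4:**
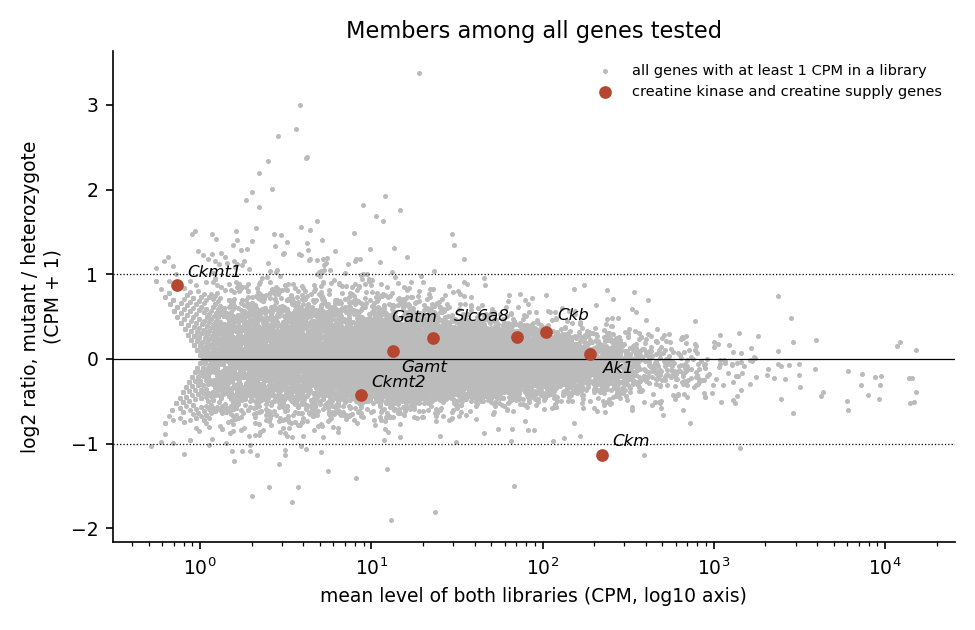
Log2 ratio of mutant over heterozygote (CPM + 1) against the mean level of both libraries (CPM, log10 axis) for the 16185 genes that reach 1 CPM in either library (grey) and the 8 members (red). Dotted lines mark 2-fold. Ckm lies below the lower line at -1.13 among genes of its level, Ckmt1 lies at the low end at 0.87, and the other members fall within the grey cloud.

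The genes that flank Ckm on the chromosome had counting intervals that lay wholly above that of Ckm. For each member the nearest model on each side that reached 1 CPM was taken, 16 in all. By the size rule 0 of these were at least 2-fold apart, where 0.605% of all genes tested were higher and 0.173% lower. A count of 0 is thus what most sets of 16 genes would give. Beside Ckm, the kinesin light chain gene Klc3 had 85 reads in the mutant and 67 in the heterozygote (ratio 1.18, 0.846 to 1.65). The kinase gene Mark4, on the other side, had 420 reads in the mutant and 311 in the heterozygote (ratio 1.25, 1.08 to 1.46). Beside Ckb, Mark3 had a ratio of 1.03 (0.940 to 1.13) and 6720458F09Rik 1.01 (0.786 to 1.31). Log2 ratios of the 16 ran from -0.33 for Zcchc9 beside Ckmt2 to 0.70 for Spata5l1 beside Gatm, which had 46 reads in the mutant and 21 in the heterozygote.

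Other genes of phosphate transfer and energy sensing stayed within 2-fold, as nearly all genes did. Of all genes tested, 0.605% were at least 2-fold higher and 0.173% lower. Of the other adenylate kinases 3 of 6 matched genes reached 1 CPM, with a median log2 ratio of -0.13 and 0 at least 2-fold apart. Ak3, of the mitochondrial matrix, had a ratio of 0.910 (0.820 to 1.01) and Ak4, listed as Ak3l1, 1.17 (1.03 to 1.33). Nucleoside diphosphate kinases, which pass phosphate between nucleotides, had a median of -0.10 over 6 of 7 genes, with 0 counting intervals clear of 1; Nme1 had a ratio of 0.981 (0.925 to 1.04), Nme6 0.867 (0.722 to 1.04) and Nme7 1.07 (0.9995 to 1.15). Subunits of AMP-activated protein kinase and its activator Stk11 had a median of 0.02 over 8 genes. Among them the catalytic subunit gene Prkaa2 had a ratio of 0.946 (0.878 to 1.02) and the regulatory subunit genes Prkag2 1.17 (1.09 to 1.26) and Prkag1 0.831 (0.748 to 0.923).

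Genes of the mitochondrial export of ATP, beside which mitochondrial creatine kinase works, had a median log2 ratio of -0.20. Of 7 genes tested, 5 had a counting interval below 1 and 2 above it, against 19.1% and 17.4% of all genes. All 7 have at least 1000 reads in all and so narrow intervals; among the 5163 genes of that depth 34% lay below and 23.6% above. The heart ADP/ATP carrier gene Slc25a4 had 18216 reads in the mutant and 19476 in the heterozygote (ratio 0.869, 0.852 to 0.887). The outer membrane channel gene Vdac3 had a ratio of 0.751 (0.691 to 0.815), while Ppif, a regulator of the permeability pore, had 1.14 (1.05 to 1.25). The median was -0.11 under total-count scaling and -0.10 with the GC and length trend removed.

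Genes that supply the substrates of creatine synthesis had list medians between -0.10 and 0.17. Genes of arginine and ornithine metabolism had a median of -0.01 over 8 genes, with the ornithine aminotransferase gene Oat at a ratio of 0.878 (0.821 to 0.938), Ass1 at 0.788 (0.560 to 1.11) and the arginine transporter gene Slc7a2 at 1.26 (0.910 to 1.76). Genes of methyl group supply, which provide S-adenosylmethionine to Gamt, had a median of -0.10 over 8 genes. Mat2a, the S-adenosylmethionine synthetase gene outside the liver, had a ratio of 0.891 (0.844 to 0.939), Ahcy 0.841 (0.734 to 0.963) and the methionine synthase gene Mtr 1.13 (0.968 to 1.32). The liver relative of Mat2a, Mat1a, was the 1 gene at least 2-fold higher (0.605% of all genes were), with 19 reads in the mutant and 2 in the heterozygote, and reached the floor through its mutant level alone. Genes of glycine and serine synthesis had a median of 0.17 over 6 genes, with Shmt2 at 1.18 (1.07 to 1.30), the glycine transporter gene Slc6a9 at 1.28 (0.987 to 1.67) and Psat1 at 0.810 (0.712 to 0.921). Under total-count scaling log2 ratios are higher by 0.09, and the median of the arginine list was then above 0, at 0.07, with those of the adenylate kinase and methyl supply lists at -0.05 and -0.01.

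The M-band list, like the others, was chosen with earlier results of these data known. At the M-band, where muscle creatine kinase docks, 1 of 7 genes tested was at least 2-fold lower, against 0.173% of all genes, and the list median was -0.08. That gene was Myom2, which encodes the myomesin of fast and heart muscle and had 71 reads in the mutant and 284 in the heterozygote (ratio 0.232, 0.177 to 0.302). Its relative Myom1 had 12405 reads in the mutant and 12163 in the heterozygote (ratio 0.948, 0.924 to 0.972), and the giant scaffold gene Ttn had a ratio of 1.16 (1.15 to 1.18). Under total-count scaling the median of the list was 0.01, and with the GC and length trend removed -0.22.

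Transcription factors known from studies of the muscle creatine kinase promoter and enhancer had a median log2 ratio of 0.17, which was 0.02 with the GC and length trend removed. Of 11 factors tested, 9 had a log2 ratio above 0, and 7 with the trend removed. The counting interval lay above 1 for 8 and below 1 for 2, against 17.4% and 19.1% of all genes. Of the 11, 8 have at least 1000 reads in all, a depth at which 23.6% of genes lay above and 34% below. The homeobox gene Six4 had 103 reads in the mutant and 45 in the heterozygote (ratio 2.13, 1.48 to 3.09) and a log2 ratio of 0.90. Gata4 had a ratio of 1.12 (1.07 to 1.18) and Mef2c 0.901 (0.831 to 0.978). The skeletal myogenic factors were near or at the floor: Myod1 had 1 read in the mutant and 0 in the heterozygote, Myog had 4 in the mutant and 3 in the heterozygote, and Myf5 and Myf6 had 0 in both.

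**Figure D5:**
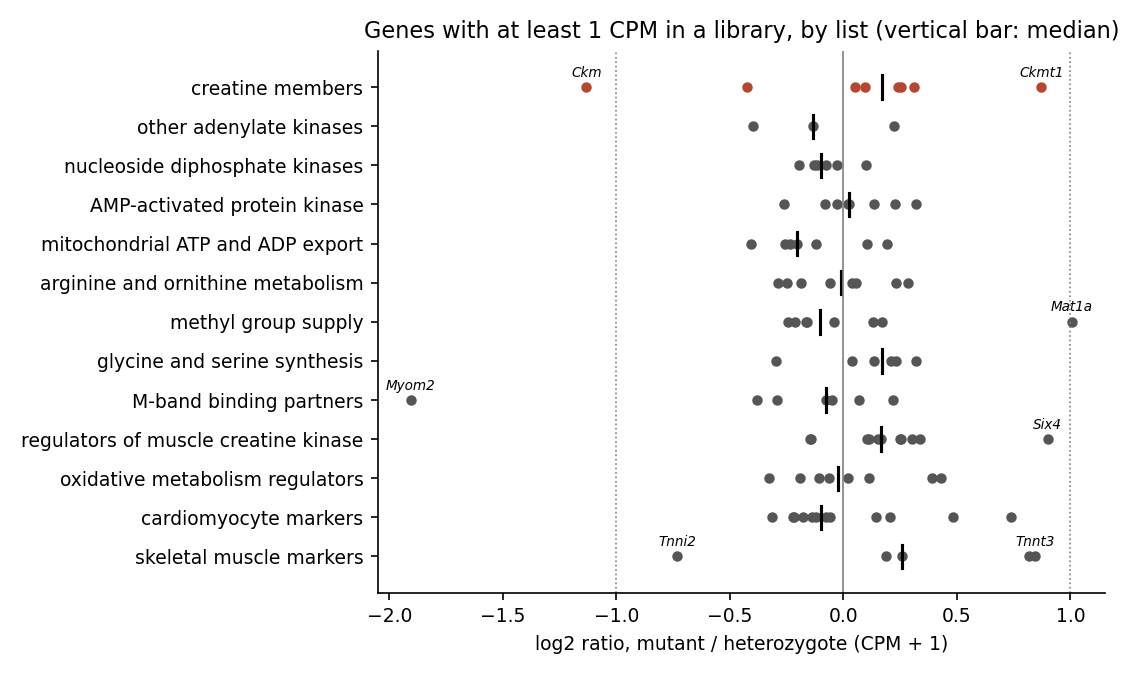
Log2 ratio of mutant over heterozygote (CPM + 1) of each gene that reaches 1 CPM in either library, for the lists named on the vertical axis, with the creatine kinase and creatine supply genes in red and a vertical bar at each list's median. Dotted lines mark 2-fold. Ckm and Myom2 lie beyond the lower line and Mat1a beyond the upper one; all other points drawn lie between the lines.

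Ckm is also a gene of skeletal muscle, and other genes of that tissue differed in both directions. Of 12 skeletal muscle markers 5 reached 1 CPM, and the 12 summed to 289.4 CPM in the mutant and 232.4 CPM in the heterozygote. The defining factors Myf5, Myf6, Pax7 and Pax3 had 0 reads in both libraries, which allows up to 3 counts in each. The skeletal actin gene Acta1, which the embryonic heart also expresses, had 2820 reads in the mutant and 1479 in the heterozygote (ratio 1.77, 1.66 to 1.89). Without Acta1 the other 11 markers summed to 95.7 CPM in the mutant and 123.1 CPM in the heterozygote. That lower sum comes from the fast troponin gene Tnni2, at 58.7 CPM in the mutant and 98.1 CPM in the heterozygote. Of the 5 markers that reached 1 CPM, 4 had a log2 ratio above 0 and 1 below. The part of skeletal muscle cells in the level of Ckm was not tested. The fast troponin gene Tnnt3 had 294 reads in the mutant and 146 in the heterozygote (ratio 1.87, 1.53 to 2.30). Tnni2, of the same fast troponin complex, went the other way with 854 reads in the mutant and 1327 in the heterozygote (ratio 0.598, 0.548 to 0.652). Regulators of oxidative metabolism had a median of -0.02 over 8 genes, with the coactivator gene Ppargc1a at 0.795 (0.723 to 0.873) and the orphan receptor genes Esrrg at 1.31 (1.21 to 1.43) and Esrrb at 1.39 (1.09 to 1.78); that median was 0.06 under total-count scaling.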

How the data were processed

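RNA of E12.5 heart apices, 8 hearts in 1 library per genotype, was sequenced with a full-length transcript kit, per the labels' protocols. The deposited tables hold whole-number read counts for 29595 gene models and CPM, counts per 1000000 of the library total, per the file headers; CPM recomputed from counts differed by at most 4.91e-11, and 0 rows differed between the series table and the tables of single samples. The deposited fold divides heterozygote CPM by mutant CPM, a ratio per the file headers, and the deposited p-value, whose test is not named, was not used. Which aligner, counter, strand setting and build were used is not stated in the labels or headers; 1 was added to starts.

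Rows of 1 symbol were summed (29383 symbols, 185 with several rows). Counts were scaled with TMM in edgeR 4.0.16 under R 4.3.3, with factors of 1.03 for the mutant and 0.970 for the heterozygote. DESeq2 1.42.0 size factors, upper-quartile and total-count scaling were alternatives. Log2 ratios are of mutant over heterozygote after adding 1 CPM to each, so differences of low genes are understated. Ratios without pseudocount have exact conditional Poisson intervals, run on data simulated with Poisson counting error alone. Such data follow the model of the interval, so that run does not cover duplicate reads or spread between animals. Lengths and GC content come from GENCODE M21 transcripts, and the trend, quadratic in GC and log length, was fitted to the 10861 genes whose mean reached 5 CPM. Named genes are the members, Ezh2 and, per pathway list, the highest mean, the highest and lowest ratio at a mean above 5 CPM, and any gene at least 2-fold apart, and from marker lists such genes where a result turns on them; Ddc, Myom1, Strc, Sox10, Acta1, AK020867, CRT, Stk11, flanking genes and myogenic factors were named beside these for the result they touch. Members and lists were chosen with earlier results of these data known. Of list entries, Ak6 and Hba-a1 were not matched. A few listed genes are not reported here and were left out of their lists.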

Additional observations from a re-analysis of the deposited data

How the results depend on the processing

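The log2 ratio of each of the 8 members kept its sign across scalings, the reference to cardiomyocyte markers included. It also did so with the GC and length trend removed and with overlapping models subtracted. Other pseudocounts cannot change a sign, and each member has 1 row, so the top row of a symbol alone gave the main values again. Over all these settings the log2 ratio of Ckm lay between -1.19 and -1.03 and that of Ckb between 0.07 and 0.41. Ranges were 0.09 to 0.35 for Slc6a8, 0.21 to 0.41 for Gatm, 0.05 to 0.19 for Gamt, 0.02 to 0.15 for Ak1, -0.47 to -0.30 for Ckmt2 and 0.26 to 2.05 for Ckmt1. The count of members at least 2-fold lower was 1 in every setting tried, without a filter and with a floor of 5 CPM included, and the count at least 2-fold higher was 0 except with a pseudocount of 0.1 CPM, where Ckmt1 made it 1. The 2 filter settings could not alter the lower count, since all 8 members were already tested and Ckm lies far above 5 CPM. The log2 ratio of the summed creatine kinase genes, -0.63, was -0.54 under total-count scaling and -0.53 relative to the cardiomyocyte markers, shifts that follow from the scaling itself. The Ckm share of cytosolic reads was 50.3% in the mutant and 73.7% in the heterozygote after subtraction of overlapping models, and 38.9% and 63.6% per kilobase of principal transcript. The mitochondrial share was 5.82% in the mutant and 4.60% in the heterozygote per kilobase of the longest transcript, and 4.18% and 3.82% per kilobase of the principal one. The longest transcript of Ckb in the annotation retains introns. Subtraction, the cardiomyocyte reference and principal and coding lengths were chosen after seeing the data. No paired analysis was possible because there is 1 library per genotype, and for the same reason no replicate could be left out. Depth limits Ckmt1, with 18 and 3 reads, and to a lesser degree Ckmt2 and Gamt.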
